A study of Mus musculus with 16 samples.

Results

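The microRNAs miR-124, miR-128 and miR-137 were followed as 4 mature arms, mmu-miR-124-3p, mmu-miR-124-5p, mmu-miR-128-3p and mmu-miR-137-3p, which were taken by name from a table of 18488 non-coding RNA rows, 1241 of them mature miRNAs. Small RNA sequencing was performed on prefrontal cortex from 8 PS19 mice and 8 wild-type (WT) mice to ask which non-coding RNAs differ in abundance with tauopathy. PS19 mice (PS19+/-) were heterozygous for a human tau (MAPT) transgene that carries the P301S mutation and is driven by the mouse prion promoter, on a mixed B6 and C3H background, and WT mice were littermates without it. The mice were adults of a single age, under a year old, and each genotype had as many males as females per the study's methods. The sample labels gave neither age nor sex for the single libraries, and each library was 1 mouse. Libraries are named here by genotype and by the replicate number of the sample title.

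A mature miRNA is a short strand that sits in an Argonaute protein and pairs with messenger RNAs through its seed, bases 2 to 8, which lowers their translation and stability. Each hairpin precursor can give a strand from its 5′ side (5p) and a strand from its 3′ side (3p), and usually one of them is retained. miR-124 is the best known neuronal miRNA and keeps non-neuronal transcripts low in neurons, miR-128 is enriched in neurons and limits their excitability, and miR-137 acts on dendrites and synapses. In a tissue such as cortex, their level depends both on the neurons sampled and on what each neuron holds.

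The mature strands show which targets a member can pair with, so they are given with the seed in capitals. RefSeq sequences (GRCm38.p6) matched 2 of the 4 members and the 3 opposite arms of miR-128 and miR-137 that the table also listed.
mmu-miR-128-3p: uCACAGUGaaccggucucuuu
mmu-miR-137-3p: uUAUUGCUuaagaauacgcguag
mmu-miR-128-1-5p: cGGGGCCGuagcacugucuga
mmu-miR-128-2-5p: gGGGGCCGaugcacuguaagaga
mmu-miR-137-5p: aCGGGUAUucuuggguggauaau
No other mouse miRNA of the sequence table shared the seed of miR-128-3p or of miR-137-3p, whereas both 5p arms of miR-128 shared the seed GGGGCCG.

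miR-128-3p is released from a pair of hairpins, and its letters are identical in both, so that reads of this strand cannot be assigned to either locus. The hairpins of miR-128 and miR-137 are given with the 3p arm in capitals.
Mir128-1: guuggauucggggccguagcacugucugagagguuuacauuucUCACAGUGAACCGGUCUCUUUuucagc
Mir128-2: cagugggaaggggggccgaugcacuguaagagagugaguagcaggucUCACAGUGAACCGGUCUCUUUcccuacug
Mir137: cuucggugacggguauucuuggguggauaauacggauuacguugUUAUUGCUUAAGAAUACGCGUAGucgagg
Mir128-1 lies at chr1:128202361-128202430 (GRCm38.p6, plus strand) in an intron of R3hdm1, and Mir128-2 lies at chr9:112118636-112118711 (minus strand) in an intron of Arpp21, which codes for a phosphoprotein of striatal and cortical neurons. Mir137 lies at chr3:118433857-118433929 (plus strand), in an exon of the non-coding transcript Gm26871. miR-124 comes from 3 loci on plus strands, Mir124a-1 at chr14:64590657-64590741 and Mir124a-2 at chr3:17795662-17795770, both in an exon of their long non-coding host transcripts, and Mir124a-3 at chr2:180894040-180894107, in an exon of the long non-coding RNA Gm27032.

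The deposited values were read counts divided by 1 size factor per library, called normalized counts here. Whole reads per row were recovered from them. Their sum over all rows, called the library total here, was 13.2 M to 23.1 M, of which mature miRNA rows took 14.8% to 32.02%. Rows with nearly the same counts, such as the mir-124 precursor rows and circular RNA rows that follow miR-128-3p, each enter this total. It is therefore not a number of separate reads. A read was worth 0.595 to 1.46 normalized counts depending on the library. The code in the labels started with G for 8 PS19 and 2 WT libraries, with F for 4 WT and with A for 2 WT libraries, with no word on its meaning, so genotype and letter can be separated only within the 10 G libraries.

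The 4 members covered 4 orders of magnitude in normalized counts. miR-128-3p ranked 3 among mature miRNAs by mean normalized count and was preceded only by let-7c-5p and let-7f-5p, while miR-124-3p ranked 42, miR-124-5p ranked 291 and miR-137-3p ranked 307. Capture of a small RNA depends on its ends and length, so ranks between different miRNAs describe these libraries and not molecules per cell. miR-128-3p held a median of 11.6% of the mature miRNA signal in PS19 and 11.2% in WT, with a range of 6.87% to 16.5% and of 6.72% to 12.5%, respectively. The median share of miR-124-3p was 0.254% in PS19 and 0.259% in WT.

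For the central question, whether these neuronal miRNAs differ between PS19 and WT cortex, none of the 4 passed the test across all 6024 rows with a mean of at least 5 normalized counts, and their levels overlapped between genotypes. All 4 members were among the rows tested. At an adjusted p under 0.05, limma called 0 rows of the table (0%), edgeR called 0 and DESeq2 called 15, none of them a member. At an unadjusted p under 0.05 limma called 241 rows (4.0%), 112 higher (1.86%) and 129 lower (2.14%) in PS19, and again no member was among them. Of the 521 mature miRNAs tested, 15 were at an unadjusted p under 0.05 (2.88%). In a piece of cortex, fewer neurons and less of a miRNA per neuron cannot be told apart.

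miR-124-3p, the strand of miR-124 that is retained in neurons, had a lowest, median and highest normalized count of 5333, 11174 and 20737 in PS19 and of 6222, 12282 and 16424 in WT. The mean ± SD was 11604 ± 5500 over the 8 PS19 mice, against 11824 ± 3973 over the 8 WT mice. PS19 mice were at both ends of the order: replicates 1 and 3 lay above every WT mouse and replicate 8 lay below all of them, with the other 5 inside the WT range. The difference, PS19 minus WT on the log2(normalized count + 1) scale, was -0.09 ± 0.29 (SE), with a 95% interval from -0.69 to 0.51 (limma, adjusted p = 0.9998 by Benjamini-Hochberg). An exact permutation test over all assignments of the libraries to 8 and 8 gave a two-sided p = 0.777.

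miR-124-5p, the opposite strand of the same hairpins, was far scarcer. Its lowest, median and highest normalized counts were 19.7, 56.8 and 106.2 in PS19 and 32.02, 67.9 and 101.6 in WT. The mean ± SD was 59.9 ± 29.8 over the 8 PS19 mice, against 64.6 ± 23.0 over the 8 WT mice. As for the 3p strand, PS19 replicate 1 was above all WT mice and PS19 replicate 8 below all of them, and only 2 of 8 PS19 mice exceeded the WT median. The log2 difference was -0.18 ± 0.32 (SE; 95% interval -0.84 to 0.48; limma, p = 0.574, adjusted p = 0.9998; exact permutation test, two-sided p = 0.602).

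miR-128-3p, the most abundant of the 4, ran from 184903 through a median of 564901 to 764931 normalized counts in PS19 and from 267778 through 505559 to 737984 in WT. The mean ± SD was 506408 ± 246007 over the 8 PS19 mice, against 466399 ± 155254 over the 8 WT mice. PS19 mice were spread wider on both sides, with replicates 3 and 4 above every WT mouse and replicates 5, 7 and 8 below every WT mouse. The median was higher in PS19 but the log2 difference was 0.002 ± 0.30 (SE; 95% interval -0.62 to 0.63; limma, p = 0.995, adjusted p = 0.9998; exact permutation test, two-sided p = 0.994).

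miR-137-3p was the scarcest member and varied most. It ranged from 10.97 through a median of 32.9 to 103.2 normalized counts in PS19 and from 10.0 through 56.0 to 94.1 in WT. The mean ± SD was 45.7 ± 34.0 over the 8 PS19 mice, against 54.0 ± 28.1 over the 8 WT mice. The lowest of all 16 mice was WT replicate 6 and the highest was PS19 replicate 5, so the groups spanned each other, although 2 of 8 PS19 mice exceeded the WT median. The log2 difference was the lowest of the members at -0.32 ± 0.45 (SE; 95% interval -1.26 to 0.62; limma, p = 0.485, adjusted p = 0.9998; exact permutation test, two-sided p = 0.542).

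**Figure D1:**
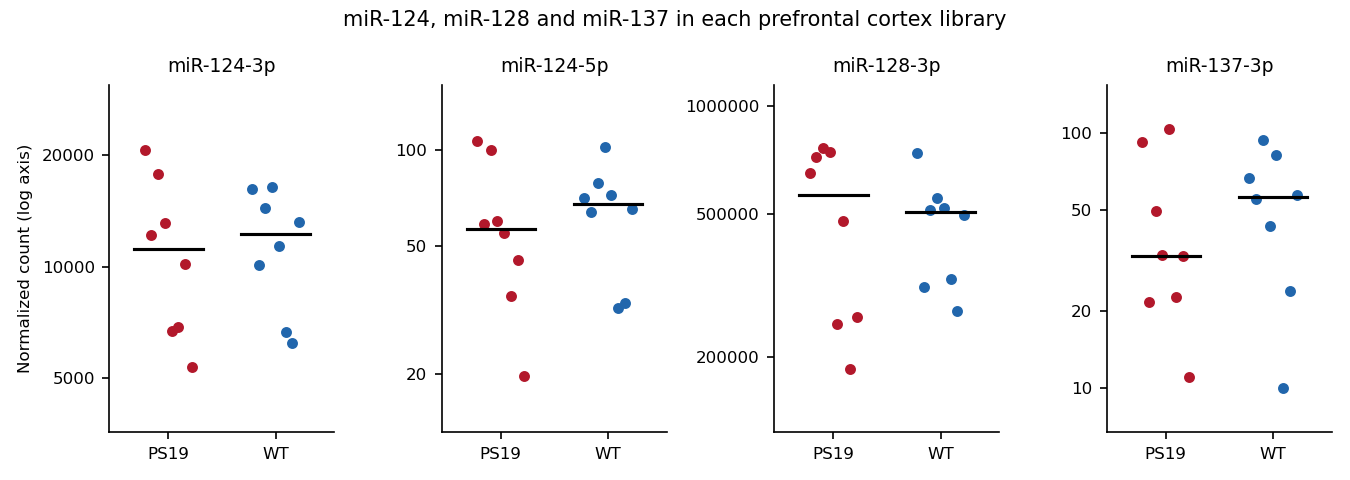
Normalized counts (log axes) of each member in the 8 PS19 (red) and 8 WT (blue) libraries, in order of replicate number from left to right within a genotype, with a line at the group median. PS19 and WT overlap in all 4 panels, and the values span 10.0 to 103.2 for miR-137-3p and 184903 to 764931 for miR-128-3p.

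The reads behind these values set different precision for the abundant and the scarce strands. Recovered reads per library were 6627 to 17072 for miR-124-3p and 251913 to 697485 for miR-128-3p, so that the counting error (Poisson) was at most 1.23% and 0.199% of the value. By contrast, miR-124-5p rested on 27 to 101 reads and miR-137-3p on 10 to 110. For the lowest library, WT replicate 6 with 10 miR-137-3p reads, the exact Poisson 95% interval was 4.80 to 18.4 reads, which covers counting error only. The variation between mice (SD over mean) was 47.4% in PS19 and 33.6% in WT for miR-124-3p, 48.6% and 33.3% for miR-128-3p, 49.7% and 35.6% for miR-124-5p, and 74.4% and 51.9% for miR-137-3p. It was wider in PS19 for every member, a difference that was not tested. For the opposite arm miR-128-1-5p it was narrower in PS19, at 29.2% against 35.7% in WT. The arms miR-128-2-5p (28.5% and 29.6%) and miR-137-5p (43.6% and 50.9%) went the same way. The precursor rows of these families were wider in PS19, and other neuron-enriched miRNAs went both ways.

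The order of the libraries moved in part with the size factor. PS19 replicates 1 and 3, the highest for miR-124-3p, were also the libraries in which a read was worth most, at 1.46 and 1.45 normalized counts. PS19 replicate 7 had the most miR-124-3p reads of all libraries, 17072, but a read was worth 0.595 there and its normalized count was 10157. Other scalings gave nearly the same genotype comparison. The log2 difference was -0.07 for miR-124-3p, -0.16 for miR-124-5p, 0.03 for miR-128-3p and -0.30 for miR-137-3p when reads were scaled to the library total. Scaled to the mature miRNA total, it was -0.04, -0.13, 0.06 and -0.27 in the same order, with unadjusted p from 0.486 to 0.849 (limma).

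Within the 10 libraries with code letter G, 8 PS19 and 2 WT, the log2 difference was -0.30 ± 0.46 (SE) for miR-124-3p, -0.58 ± 0.51 for miR-124-5p, 0.10 ± 0.50 for miR-128-3p and -0.43 ± 0.63 for miR-137-3p. Unadjusted p ran from 0.272 to 0.851 and every adjusted p was 0.9997 (limma). The median difference over the 521 tested mature miRNAs was -0.33 within the G libraries and -0.13 over all 16, beside -0.03 and -0.02 over all rows tested, respectively. All G-letter comparisons rest on the same 2 WT mice, replicates 2 and 4.

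Individual mice could turn the sign of 3 members. Without PS19 replicate 8, the lowest library of both miR-124 strands, the log2 difference became 0.05 for miR-124-3p and 0.02 for miR-124-5p, and without PS19 replicate 5 it was 0.003 for miR-124-3p. For miR-128-3p it lay between -0.11 (without PS19 replicate 3) and 0.18 (without PS19 replicate 7) and was negative in 8 of 16 such fits. Only miR-137-3p stayed below 0 in all 16, from -0.62 without WT replicate 6 to -0.09 without PS19 replicate 8, and the smallest unadjusted p among these was 0.142 (limma).

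**Figure D2:**
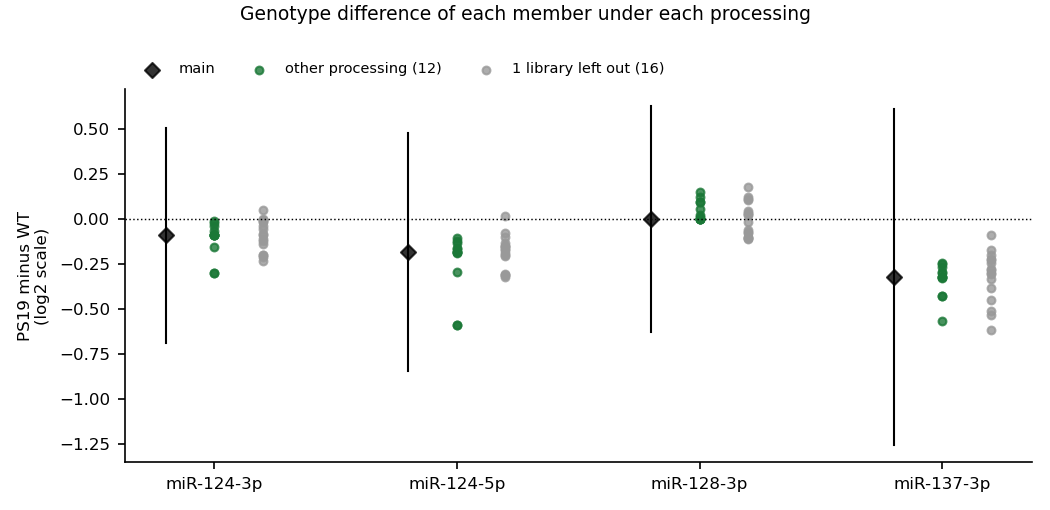
Genotype difference (PS19 minus WT, log2 scale) of each member, with the reported value and its 95% interval as a black diamond and line, 12 other ways of processing in green and the 16 fits with 1 library left out in grey. All points for miR-137-3p lie below 0, from -0.62 to -0.09, while those of miR-128-3p lie on both sides of 0, from -0.11 to 0.18.

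The balance between strands and between members was then compared within each library, where the size factor cancels. miR-124-3p outnumbered miR-124-5p by 122 to 270 times (median 202) in PS19 and by 158 to 230 times (median 185) in WT. The lowest and the highest ratio were both from PS19 mice, with WT inside that range. The mean log2 ratio ± SD was 7.62 ± 0.33 over the 8 PS19 mice and 7.53 ± 0.20 over the 8 WT mice, a difference of 0.10 (exact permutation test, two-sided p = 0.50, adjusted p = 0.718 over 5 measures), and of 0.30 within the G libraries. Without PS19 replicate 5, the lowest library, it was 0.20 (exact permutation test, two-sided p = 0.0749, adjusted p = 0.277), and without PS19 replicate 8 it was 0.03.

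miR-128-3p reads exceeded those of miR-124-3p by 18.2 to 69.7 times (median 45.6) in PS19 and by 30.9 to 49.9 times (median 40.3) in WT. PS19 replicate 7 was lowest, and PS19 mice were again spread wider than WT mice on both sides. Mean log2 ratios ± SD were 5.40 ± 0.62 for the 8 PS19 mice and 5.31 ± 0.24 for the 8 WT mice, which differ by 0.09 (95% interval -0.42 to 0.57; exact permutation test, two-sided p = 0.718, adjusted p = 0.718). The difference was 0.27 without PS19 replicate 7, -0.01 without PS19 replicate 6 and 0.39 within the G libraries.

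Relative to miR-124-3p, miR-137-3p had a mean log2 ratio ± SD of -8.19 ± 0.97 for the 8 PS19 mice and -7.95 ± 0.73 for the 8 WT mice (difference -0.24, exact permutation test, two-sided p = 0.598, adjusted p = 0.718). Relative to miR-128-3p, it was -13.60 ± 1.30 and -13.27 ± 0.85 (difference -0.33, exact permutation test, two-sided p = 0.552, adjusted p = 0.718). PS19 replicate 5 was the highest library in both ratios, at -6.02 and -11.23, and without it the differences became -0.55 and -0.67. Within the G libraries they were -0.15 and -0.54. Neither passed the test without it, the smallest p in any fit with 1 library left out being 0.111 and 0.170 (two-sided exact permutation test).

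Together the 4 members held 7.25% to 16.8% (median 11.9%) of the mature miRNA signal in PS19 and 6.94% to 12.8% (median 11.5%) in WT. Nearly all of this was miR-128-3p. The mean share ± SD was 11.5% ± 3.27 for the 8 PS19 mice and 10.9% ± 2.10 for the 8 WT mice. The difference of 0.639 percentage points (95% interval -2.30 to 3.61) was smaller than the SD of either genotype (exact permutation test, two-sided p = 0.649, adjusted p = 0.718). It was 2.22 points within the G libraries and -0.12 points without PS19 replicate 2.

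**Figure D3:**
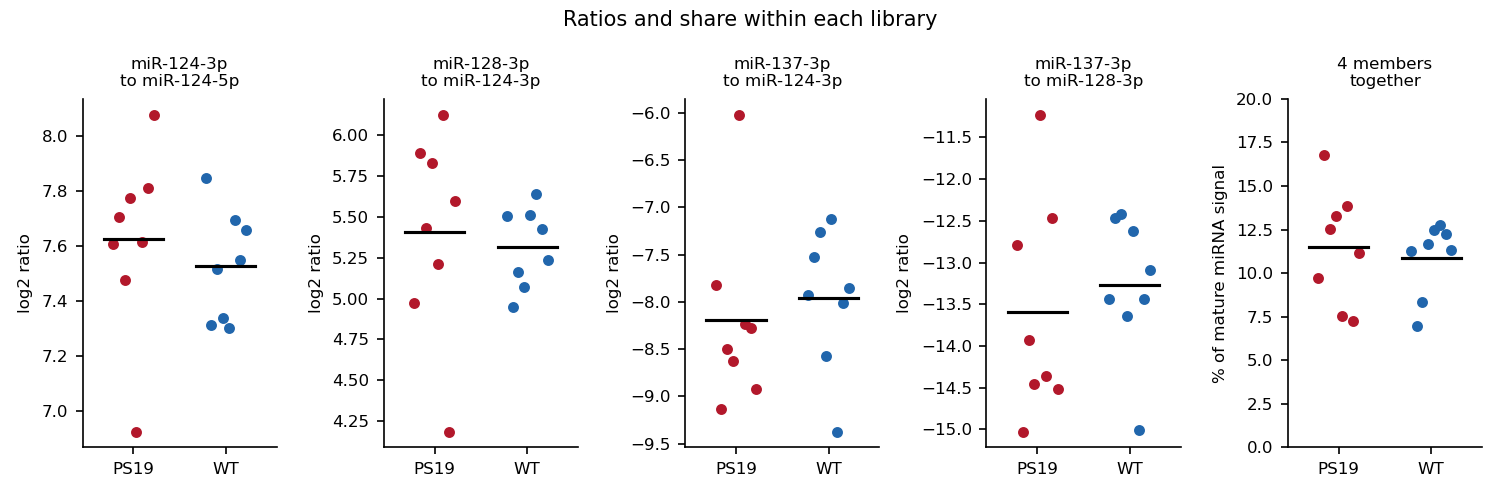
Log2 ratios between members and the percentage of mature miRNA signal held by the 4 members together, in each PS19 (red) and WT (blue) library by replicate number from left to right, with a line at the group mean. The genotypes overlap in every panel, and PS19 replicate 5 stands highest in both miR-137-3p ratios, at -6.02 and -11.23.

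The opposite arms and the precursor rows of the same families were examined next. The table listed 3 further arms, and none passed the test (adjusted p = 0.9998 for each, limma). miR-128-1-5p differed by -0.12 ± 0.25 (SE) and miR-128-2-5p by 0.19 ± 0.25 on the log2 scale, and an exact permutation test gave two-sided p = 0.631 and 0.464, respectively. Within the G libraries the log2 difference was 0.15 for miR-128-1-5p and 0.60 ± 0.44 for miR-128-2-5p. miR-137-5p differed by -0.09 ± 0.30 (exact permutation test, two-sided p = 0.767), beside -0.32 for its partner strand miR-137-3p.

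For miR-137 the 5p arm was the more abundant one in all 16 libraries. The ratio of miR-137-5p to miR-137-3p was 1.68 to 7.6 (median 2.81) in PS19 and 1.17 to 8.6 (median 2.73) in WT. The miR-137-5p level ran from 68.2 through 98.7 to 203.8 normalized counts in PS19 and from 67.2 through 102.9 to 263.5 in WT. For miR-128 the 3p strand outnumbered the 5p strands of the separate loci by 849 to 2328 times (miR-128-1-5p) and by 641 to 2003 times (miR-128-2-5p). These 5p strands differ between the loci and were of like abundance, with a ratio of miR-128-2-5p to miR-128-1-5p of 0.770 to 2.01 (median 1.396) in PS19 and of 0.818 to 1.26 (median 1.0498) in WT.

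The 6 precursor rows had log2 differences from -0.23 for mir-137 to -0.005 for mir-128-1 (unadjusted p from 0.511 to 0.988, limma). Only mir-137 stayed below 0 under all 12 other ways of processing. The other 5 were above 0 in both DESeq2 and edgeR, at 0.01 and 0.02 for the 3 mir-124 rows, 0.10 and 0.13 for mir-128-1 and 0.05 and 0.08 for mir-128-2, and the mir-128 rows turned under further settings. The rows mir-124-1, mir-124-2 and mir-124-3 were equal in 7 libraries and differed by at most 4 reads in the others, so they are 1 measurement and not 3. miR-124-3p was 1.89 to 2.46 times each library's mir-124-1 row. The mir-128-1 row was 1.95 to 2.57 times the mir-128-2 row, with medians of 2.42 in PS19 and 2.30 in WT. Over the 16 libraries mir-124-1 followed miR-124-3p at a Pearson r of 0.985 (log2 scale). The same value with miR-128-3p was 0.984 for mir-128-1 and 0.981 for mir-128-2, and mir-137 had 0.813 with miR-137-3p. Whether these rows hold hairpins or reads of the mature strands was not tested, so they are not separate evidence on the members.

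A wider list of 15 other neuron-enriched miRNAs, among them miR-132-3p, miR-218-5p and miR-127-3p, was read in the same fit. None passed the test at either threshold, beside 4.0% of all rows at an unadjusted p under 0.05. The median log2 difference was -0.05, beside -0.02 over all rows and -0.13 over mature miRNAs. In sign, 10 were below 0 and 5 above 0, but this count moved with the processing: 13 were below 0 in DESeq2, 12 in edgeR, 9 when scaled to the library total, 6 when scaled to the mature miRNA total and 15 within the G libraries. All 5 that were above 0, miR-132-3p, miR-212-3p, miR-134-5p, miR-127-3p and miR-382-5p, were below 0 within the G libraries. The median over all tested mature miRNAs was -0.12 in DESeq2, -0.10 in edgeR and -0.10 scaled to the library total. It was -0.07 scaled to the mature miRNA total and -0.33 within the G libraries, which hold 2 WT mice. Whether the sign counts are particular to neuron-enriched miRNAs was not tested. Which of the 15 share a locus was not examined, so the sign counts are not counts of separate loci. The lowest of the 15 was miR-410-3p, at -0.44 ± 0.35 (SE; 95% interval -1.16 to 0.28), and the highest was miR-134-5p, which acts on dendritic spines, at 0.05 ± 0.30 (limma, adjusted p = 0.9998 for both). miR-134-5p was -0.01 in both DESeq2 and edgeR and -0.42 within the G libraries, while miR-410-3p stayed below 0 under all 12 settings, from -0.83 to -0.38.

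**Figure D4:**
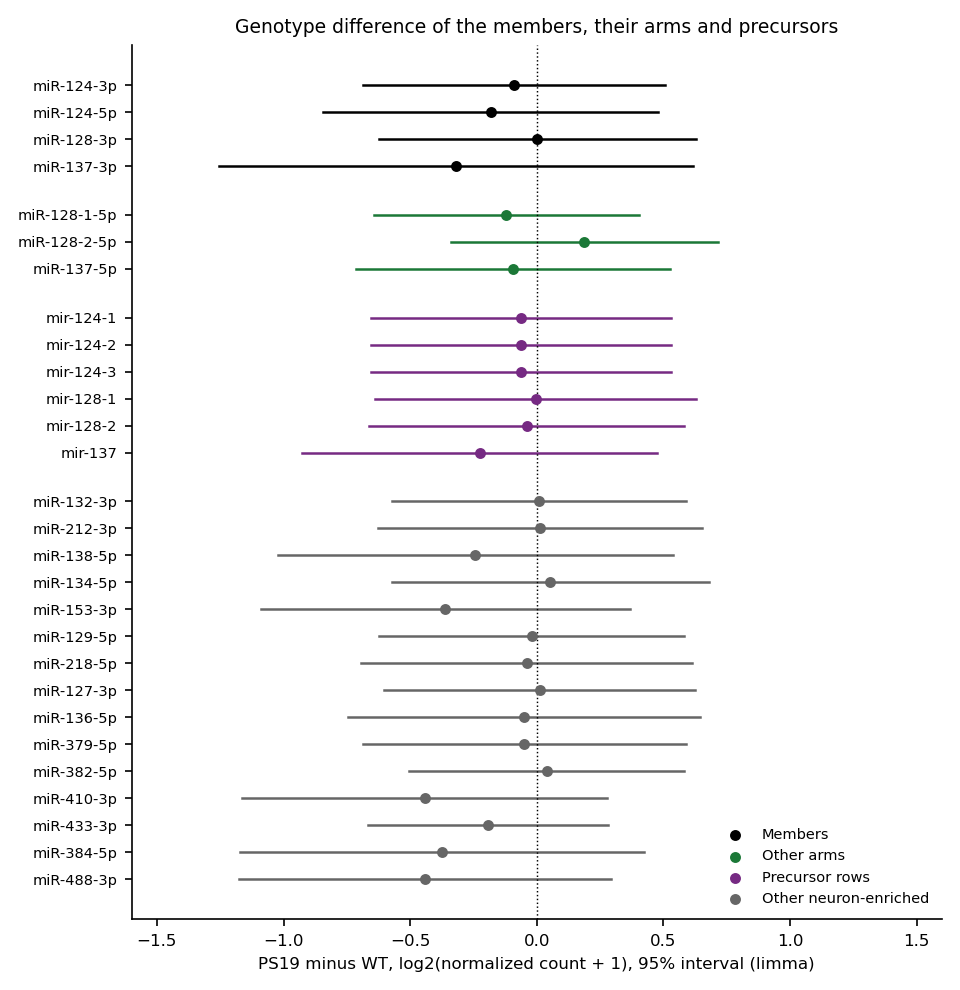
Genotype difference (PS19 minus WT on the log2(normalized count + 1) scale, points) with the limma 95% interval (lines) for the 4 members (black), 3 other arms (green), 6 precursor rows (purple) and 15 other neuron-enriched miRNAs (grey). Every interval includes 0, and the point of miR-137-3p, at -0.32, is the lowest of the members.

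Marker miRNAs of other cell types were summed in the same libraries. The sum of 5 microglial and other myeloid miRNAs was 571 to 3013 normalized counts (median 1247) in PS19 and 433 to 1539 (median 1089) in WT, and miR-146a-5p alone made up 90.7% to 96.8% of it. miR-146a-5p differed by 0.36 ± 0.33 (SE) and miR-155-5p by 0.78 ± 0.30 on the log2 scale, with an unadjusted p under 0.05 for miR-155-5p only and an adjusted p = 0.9998 for both (limma). The other 3 had means of 2.26 to 3.67 normalized counts, under the filter, and were fitted only without it. There miR-142a-3p differed by 1.21 ± 0.46 (SE), miR-142a-5p by 0.10 ± 0.41 and miR-223-3p by -0.58 ± 0.39, with an unadjusted p under 0.05 for miR-142a-3p and an adjusted p = 0.9999 for each (limma). The 4 oligodendrocyte miRNAs summed to 19016 to 54103 (median 37900) in PS19 and 13912 to 47585 (median 24693) in WT, of which miR-219a-2-3p made up 95.4% to 97.6%. The 3 that passed the filter had differences of 0.19 to 0.40 with unadjusted p from 0.152 to 0.556, and miR-338-3p was -0.07 within the G libraries. Muscle miRNAs were also present, at a sum of 2253 to 14631 in PS19 and 2867 to 10688 in WT, as were endothelial (5017 to 28305 and 5112 to 27200), red blood cell (731 to 1518 and 652 to 1411) and liver (138 to 654 and 132 to 387) miRNAs, and each of these sums was also led by 1 row. No marker was at 0 in every library, and the part of these cells in the levels of the 4 members was not tested.

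How the members varied with each other was measured by correlation over the 16 libraries on the log2(normalized count + 1) scale, with 6 pairs tested. miR-124-3p and miR-124-5p, strands of the same hairpins, were closest (Pearson r = 0.92, permutation p = 1e-05, the smallest that 100000 resamples can give, adjusted p = 6e-05; Spearman rho = 0.92, permutation p = 1e-05, adjusted p = 6e-05). This held in PS19 (r = 0.91), in WT (r = 0.94), within the G libraries (r = 0.91) and without the 2 libraries farthest from the median of miR-124-3p (r = 0.89). Scaled to the mature miRNA total, r was 0.63 (permutation p = 0.00914, adjusted p = 0.0274).

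miR-124-3p and miR-128-3p, which come from different chromosomes, had r = 0.75 (permutation p = 0.00135, adjusted p = 0.0027) and rho = 0.78 (permutation p = 0.00064, adjusted p = 0.00192). The value was 0.89 within WT, 0.69 within PS19, 0.69 within the G libraries and 0.67 without the 2 farthest libraries. It missed the threshold by r in PS19 (permutation, adjusted p = 0.134) and in the G libraries (0.0664), and by rho in the same sets (0.144 and 0.0721). Scaled to the mature miRNA total it was 0.01 (permutation p = 0.981), so the relation did not hold under that scaling. All values on the deposited scale share each library's size factor, and the median r with the other 520 tested mature miRNAs was 0.68 for miR-124-3p, 0.69 for miR-124-5p, 0.54 for miR-128-3p and 0.58 for miR-137-3p. The 0.75 of this pair stands beside medians of 0.68 and 0.54, respectively.

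miR-124-5p and miR-137-3p, both scarce, had r = 0.78 (permutation p = 0.00035, adjusted p = 0.00105) and rho = 0.69 (permutation p = 0.00392, adjusted p = 0.00784), with r = 0.76 in PS19, 0.81 in WT, 0.73 in the G libraries, 0.60 without the 2 farthest libraries and 0.55 under mature miRNA scaling (permutation, adjusted p = 0.0513). By Pearson r the pair missed the threshold in PS19 (permutation, adjusted p = 0.0814) and under mature miRNA scaling. By rho it missed it in PS19 and in WT (permutation, adjusted p = 0.144 each), in the G libraries (0.108) and without the 2 farthest (0.0725). miR-124-5p and miR-128-3p had r = 0.64 (permutation p = 0.00742, adjusted p = 0.0111) and rho = 0.66 (permutation p = 0.0066, adjusted p = 0.0099), with r = 0.61 in PS19, 0.75 in WT, 0.57 in the G libraries, 0.58 without the 2 farthest and -0.26 under mature miRNA scaling. By r it missed the threshold in PS19 (permutation, adjusted p = 0.174), in the G libraries (0.12) and under mature miRNA scaling (0.5), and by rho in PS19, WT, the G libraries, without the 2 farthest and under mature miRNA scaling, with adjusted p from 0.0534 to 0.45. The 0.64 lies between the medians of its members with all other mature miRNAs, 0.69 and 0.54. miR-124-3p and miR-137-3p had r = 0.60 (permutation p = 0.0147, adjusted p = 0.0177) and rho = 0.51 (permutation p = 0.046, adjusted p = 0.0552), so that it passed by Pearson r and not by rho, and the 0.60 lies between the corresponding medians, 0.68 and 0.58. Without PS19 replicate 8 and WT replicate 7, the libraries farthest from the median of miR-124-3p, r was 0.44 (permutation p = 0.113). The pair then no longer passed, with 14 libraries left, and no other removal was run for it. Its r was 0.48 in PS19, 0.77 in WT (permutation, adjusted p = 0.0369), 0.46 in the G libraries and 0.0022 under mature miRNA scaling.

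miR-128-3p and miR-137-3p, the most and the least abundant member, did not pass by either coefficient on the deposited scale (r = 0.28, permutation p = 0.295, adjusted p = 0.295; rho = 0.17, permutation p = 0.537, adjusted p = 0.537). The value was 0.10 in PS19, 0.63 in WT, 0.06 in the G libraries and 0.51 without PS19 replicates 5 and 7. As shares of the mature miRNA total they were opposed (r = -0.63, permutation p = 0.00905, adjusted p = 0.0274; rho = -0.61, permutation p = 0.0128, adjusted p = 0.0338). miR-128-3p made up 6.72% to 16.5% of that total itself.

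**Figure D5:**
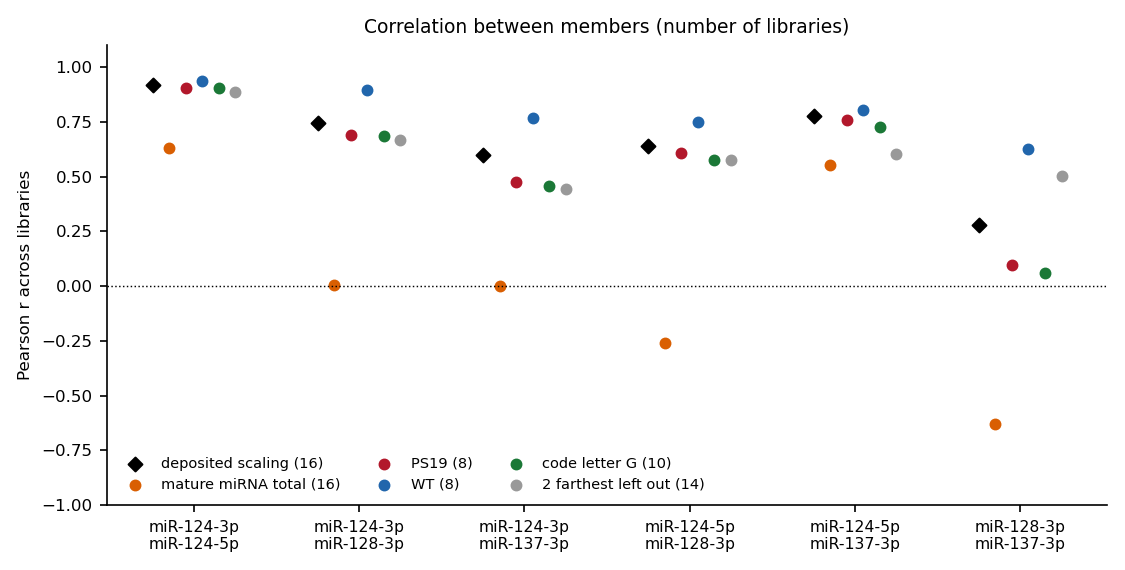
Pearson r between members across libraries on the log2 scale, for each of 6 pairs, with the deposited scaling (black diamonds), scaling to the mature miRNA total (orange), PS19 alone (red), WT alone (blue), code letter G alone (green) and the 2 farthest libraries left out (grey). miR-124-3p and miR-124-5p stay at or above 0.63 throughout, and miR-128-3p with miR-137-3p runs from -0.63 to 0.63.

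The rows whose pattern over the 16 libraries was most like each member's were named as a description, by Pearson r on the log2 scale among the 6014 tested rows that remain once the members and the precursor rows of their families are left out. For miR-124-3p they were miR-3083-5p (r = 0.96, rho = 0.92), the circular RNA mmu_circ_0002329 (r = 0.95, rho = 0.89) and miR-26a-5p (r = 0.95, rho = 0.93). For miR-124-5p they were miR-455-5p (r = 0.97, rho = 0.94), miR-30e-5p (r = 0.95, rho = 0.94) and miR-22-3p (r = 0.95, rho = 0.96). For miR-137-3p they were miR-29b-3p (r = 0.93, rho = 0.87), the precursor row mir-342 (r = 0.92, rho = 0.89) and miR-676-5p (r = 0.91, rho = 0.90). Of these 6014 rows, 66 had an r of at least 0.9 with miR-124-3p, 47 with miR-124-5p, 15 with miR-128-3p and 5 with miR-137-3p.

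For miR-128-3p the most alike rows were circular RNAs of nearly its own abundance. mmu_circ_0000075, mmu_circ_0008145 and mmu_circ_0008146 each followed it at r = 0.9999 (rho = 1) with a mean of 428649 normalized counts beside 486403 for miR-128-3p, and mmu_circ_0008144, named after its values were seen, did so too. In every library each of the 4 held 87.1% to 89.4% of the miR-128-3p value. No other member had a row at r of at least 0.99. Whether a read was counted under both names was not given in the sources used here, and these rows are no separate evidence on miR-128-3p.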

How the data were processed

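Prefrontal cortex small RNA from 8 PS19 and 8 WT mice was sequenced single-end by the authors, aligned with STAR 2.5.3a inside COMPSRA, a small RNA annotation pipeline, and compared with DESeq2 1.42.1 at an unadjusted Wald p. The submitters' processing notes name mm10. The deposited signal is a normalized count, read counts that the authors divided by 1 size factor per library. Every value was a whole multiple, within 0.01 reads, of the smallest value above 0 in its library (100%), which gave whole reads; for WT replicates 4 and 6 that smallest value was close to 1, which is weaker evidence. The table also held the authors' mean, log2 fold change, standard error, Wald statistic and p-values, which were not used. All columns of library values were used, so that 0 were set aside.

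Values were taken as log2(value + 1), rows with a mean of at least 5 were kept, and limma 3.58.1 (lmFit, eBayes with trend, R 4.3.3) was fitted to all 16 libraries with genotype as the only term, two-sided, with Benjamini-Hochberg adjustment over all 6024 rows. Differences on this scale understate those of low rows. Ratios and shares within a library were compared by exact permutation tests (two-sided), and correlations by 100000 resamples (Python 3.11.15, scipy 1.17.1). The fit was tested on simulated data. Alternatives were DESeq2 1.42.0 and edgeR 4.0.16 (quasi-likelihood, TMM) on recovered reads, scaling by library totals or by mature miRNA totals, pseudocounts of 0.5 and 5, no filter beyond 2 libraries above 0, a mean of at least 20, robust array weights, the replicate number as a block, the code letter as a term, the G libraries alone, and each library left out. Correlations within the G libraries, and the alternatives for the other arms, precursors and neuron-enriched miRNAs, were added after seeing the data.

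Recovered reads summed over all rows were 13.2 M to 23.1 M per library, a sum that nearly equal rows each enter. No pair of libraries in a group agreed within sampling noise (chi-square per degree of freedom 43.5 to 570 over 56 pairs), so none was the same library sequenced again. This check cannot tell repeated preparations of a mouse from separate mice. That each library was 1 mouse rests on the study's design of 8 mice per genotype. Nothing beyond the labels says how the libraries were batched. Named rows were the 4 members, the other arms and precursors of their families, the 3 rows most like each member, and, of 15 other neuron-enriched miRNAs, the lowest, the highest and any with an unadjusted p under 0.05, plus the marker miRNAs. The members and lists were chosen with earlier results of these data known. Positions and sequences are from RefSeq and GENCODE M21 (GRCm38.p6).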

Additional observations from a re-analysis of the deposited data

Results flagged for a closer look

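Of 38 group values examined for a library far from the rest of its group of 8, 4 lay further from their neighbour, relative to the range of the group, than Dixon's 95% limit allows. Chance gives about 1 in 20. miR-128-2-5p was 167.8 normalized counts in PS19 replicate 7, where the next lowest PS19 library had 381.9. The mir-137 precursor row was 47.9 normalized counts in WT replicate 3, against 27.6 in the next highest WT library. The log2 ratio of miR-137-3p to miR-124-3p was -6.02 in PS19 replicate 5, above -7.82 in the next PS19 library. The log2 ratio of miR-137-3p to miR-128-3p was -15.01 in WT replicate 6, where the miR-137-3p value rests on 10 reads, below -13.64 in the next WT library.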

How the results depend on the processing

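The genotype difference of each member kept its sign in all 12 alternatives other than leaving out a library, with log2 ranges of -0.30 to -0.01 for miR-124-3p, -0.58 to -0.10 for miR-124-5p, 0.002 to 0.15 for miR-128-3p and -0.56 to -0.24 for miR-137-3p, and no adjusted p fell under 0.857. The filters and the replicate block cannot change a row's difference in this design. The code letter as a term repeats the G libraries alone. Agreement in these settings is therefore no separate evidence of a stable sign. With 1 library left out the ranges, with the members in the same order, were -0.23 to 0.050, -0.32 to 0.017, -0.11 to 0.18 and -0.62 to -0.09. The log2 ratios then ranged from 0.03 to 0.20 (miR-124-3p to miR-124-5p), -0.011 to 0.27 (miR-128-3p to miR-124-3p), -0.55 to -0.10 (miR-137-3p to miR-124-3p) and -0.67 to -0.13 (miR-137-3p to miR-128-3p), and the shared percentage from -0.12 to 1.25. The labels do not say what a replicate number marks. Same-numbered deviations correlated at 0.04 to 0.46, positive in all 8 pairs but over 0.1 in only 6 of 8, and 2 of 8 correlated best with their own number, so not every pair passed the limit set for pairing and the numbers were not treated as pairs. With the replicate number as a block, differences were -0.09, -0.18, 0.002 and -0.32 with adjusted p from 0.921 to 0.9998 in limma, and the ratios and share were unchanged in size. The count of rows at an adjusted p under 0.05 was 0 in limma, edgeR and all 16 fits without a library, and 15 with DESeq2. The count at an unadjusted p under 0.05 was 241, ranged from 171 to 321 without 1 library, and was 122 with mature miRNA scaling, 680 without the filter, 136 at a mean of at least 20, 418 with array weights, 419 with the block, 124 with the code letter as a term and 121 in the G libraries; the cause was not tested beyond the number of rows (17088 without the filter, 2510 at the stricter mean). Among correlations, mature miRNA scaling gave -0.26 (miR-124-5p with miR-128-3p), -0.63 (miR-128-3p with miR-137-3p), 0.0064 (miR-124-3p with miR-128-3p), 0.0022 (miR-124-3p with miR-137-3p) and 0.55 (miR-124-5p with miR-137-3p). By Pearson r all of these except miR-128-3p with miR-137-3p then missed the threshold. The other pairs no longer past it by Pearson r were miR-124-3p with miR-128-3p in PS19 (0.69) and the G libraries (0.69), miR-124-3p with miR-137-3p in PS19 (0.48), the G libraries (0.46) and without the 2 farthest (0.44), miR-124-5p with miR-128-3p in PS19 (0.61) and the G libraries (0.57), and miR-124-5p with miR-137-3p in PS19 (0.76), with fewer libraries in each. By Spearman rho, with permutation p-values adjusted over 6 pairs, miR-124-5p with miR-137-3p and miR-124-5p with miR-128-3p were also lost in WT and without the 2 farthest, and miR-124-5p with miR-137-3p in the G libraries, while under mature miRNA scaling the latter pair passed (0.0338). Among the other arms, precursor rows and other neuron-enriched miRNAs, 15 of 24 changed sign in at least 1 of the 12 settings. Scaling to the library total turned mir-128-1 to 0.019 and miR-129-5p to 0.0041. Mature miRNA scaling turned mir-128-1 to 0.049, mir-128-2 to 0.014, miR-129-5p to 0.034, miR-218-5p to 0.014, miR-136-5p to 0.0019 and miR-379-5p to 0.0046. DESeq2 turned mir-124-1, mir-124-2 and mir-124-3 to 0.010 each, mir-128-1 to 0.095, mir-128-2 to 0.047, miR-132-3p to -0.0083, miR-134-5p to -0.014 and miR-212-3p to -0.048. edgeR turned the 3 mir-124 rows to 0.020 each, mir-128-1 to 0.13, mir-128-2 to 0.079, miR-134-5p to -0.0095 and miR-212-3p to -0.024. Array weights turned mir-128-1 to 0.0098, miR-212-3p to -0.027, miR-127-3p to -0.030 and miR-382-5p to -0.070. The code letter as a term and the G libraries alone gave the same values, 0.28 for mir-128-1, 0.14 for mir-128-2, 0.15 for miR-128-1-5p, -0.14 for miR-132-3p, -0.23 for miR-382-5p, -0.27 for miR-212-3p, -0.38 for miR-127-3p and -0.42 for miR-134-5p. Among the 4 members, depth limits miR-137-3p and miR-124-5p most, at no more than 110 and 101 reads per library, and the mir-137 precursor row rested on 10 to 56 reads.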
